A study of Arabidopsis thaliana with 12 samples.

Results

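ATG8B (AT4G04620), ATG8E (AT2G45170), ATG8F (AT4G16520) and ATG8H (AT3G06420) are 4 of the 9 ATG8 genes of Arabidopsis. Each had 1 probe set that GEO's annotation ties to that gene alone, and all 4 lay above the intensity filter, among 9161 genes tested. They were chosen by gene symbol with their level, amplitude and peak time over these same harvests already known. Those 3 quantities are therefore given as a description with standard errors. Whether a gene passed the rhythm test, in the main fit or under other settings, is stated for them as part of that description and not as a finding.

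Every harvest was whole seedlings of the Col-0 ecotype, wild type apart from the transgene CCR2::LUCIFERASE, in which the promoter of a clock-regulated gene drives firefly luciferase. Plants spent 7 d in cycles of 12-h light and 12-h dark on medium with sucrose and were then left in constant white light at 22 °C. Seedlings were collected 12 times at intervals of 4 h, from 24 to 68 h after the last dawn, with 1 Affymetrix ATH1 array for each harvest. In circadian time (CT), hours are counted from subjective dawn as 0, so that 24 and 48 h are both CT0 and the harvests make 2 cycles. No harvest was repeated, so every standard error below rests on the scatter of 12 arrays about a fitted curve. For the standard errors, limma drew each gene's scatter toward that of all tested genes. Where a gene's scatter about the curve is itself given, it is without that step.

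Autophagy carries portions of cytoplasm to the vacuole for breakdown and recycling. ATG8 proteins are small and ubiquitin-like. The protease ATG4 trims most of them to a C-terminal glycine, and the enzymes ATG7 and ATG3 then join that glycine to a lipid, phosphatidylethanolamine, in the growing autophagosome membrane. There ATG8 helps the membrane expand and binds the receptors that bring cargo. In Arabidopsis ATG8H and ATG8I form a branch of their own and end at the glycine without the extra residues that ATG4 removes, and the other family members carry the extension. Autophagy of leaves is known to rise when sugar runs short, as in long darkness.

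Array medians lay between 149.9 and 153.6, and the log2 values of any pair of arrays correlated at 0.979 to 0.992. Scanning took 3 days. Scan day 1 held 7 arrays, those of 24 h and of every time from 32 to 52 h. Scan day 2 held the 4 arrays from 56 h onward, and the array of 28 h was the only one of scan day 3. The array of 44 h was the least like the median of the others (correlation 0.9882, against 0.9903 or more for the rest). On it 13.6% of tested genes had their lowest value and 11.5% their highest, each the largest share of any time. Markers of both ends of the seedling were present. The green-tissue genes RCA, LHCB4.1 and LHCB4.2 had mean intensities of 9976, 6855 and 4212, and the root genes EXPA7, EXPA18 and PYK10 had 204.7, 381.4 and 10060. Each ATG8 value below is a linear intensity as deposited, and means are geometric. Probe sets differ in how strongly they bind, so levels are compared only within a gene.

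All 4 genes had their highest value of each cycle at CT4 or CT8. The share of all tested genes with this pattern was not counted. ATG8B and ATG8H were highest at CT4 in both cycles, as were 6.28% of all tested genes. ATG8E was highest at CT8 in both, as were 4.06%. The lowest value of the first cycle was at CT16 for ATG8B and at CT20 for the other 3, and that of the second was at CT0 for ATG8E and at CT16 for the other 3. A 24-h cosine with a linear trend was fitted to the log2 intensity of every gene, and in that fit the 4 peaks fell between CT4.54 and CT6.94. The fitted log2 amplitudes, from mean to peak, ran from 0.19 to 0.34, with a median of 0.21 against 0.088 over all tested genes. At an adjusted p below 0.05 from limma's moderated F-test, 4 of the 4 were called rhythmic, where 11% of all tested genes were. The rule that chose them used these same curves, so that count describes the choice and nothing is read from it. With each time left out in turn, ATG8F fell outside the threshold in 6 of 12 fits and ATG8H in 7. These fits use the same curves too, so they do not test whether the genes are rhythmic. Of all tested genes, 11.6% had a log2 amplitude at least as large as that of ATG8B, the smallest of the 4, and 19.6% had a fitted peak between CT4 and CT8.

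**Figure D1:**
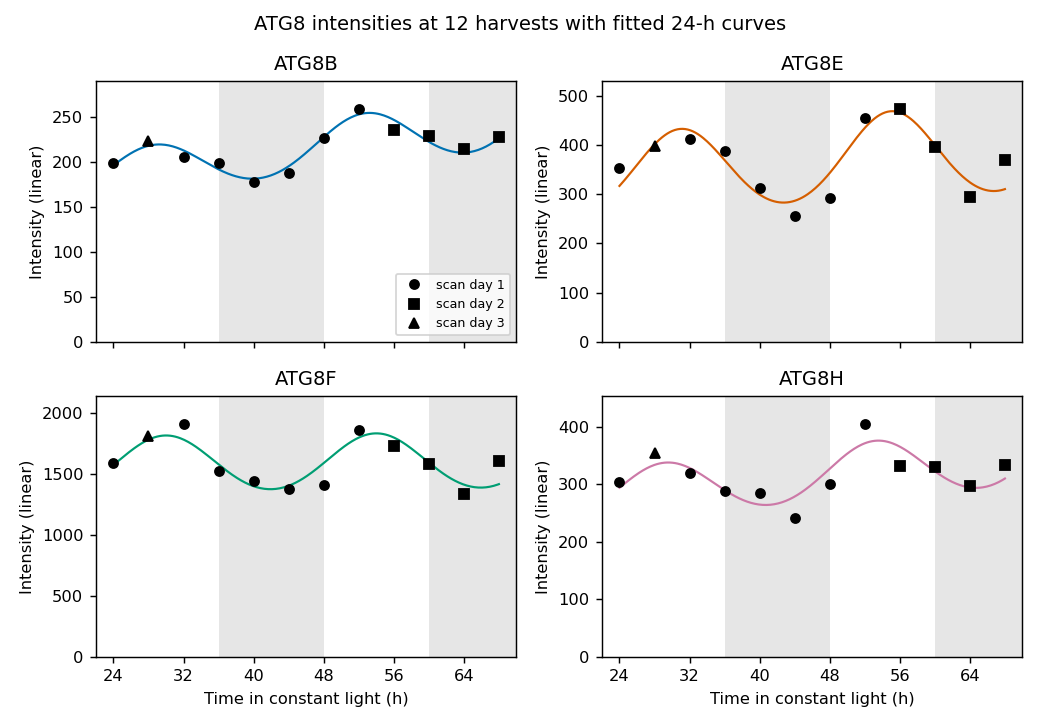
Linear intensity (y axis, from 0) of ATG8B, ATG8E, ATG8F and ATG8H against hours in constant light (x axis), 1 point per array with its shape giving the scan day, and the fitted 24-h curve with trend as a line. Grey bands are subjective night. ATG8E ranges from 254.9 to 473.5, the widest of the 4 in relative terms, and each gene rises again between 48 and 52 h.

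ATG8E had the widest swing. In the first cycle its intensity was 353.6 at 24 h, 397.2 at 28 h, 412.3 at 32 h, 387.5 at 36 h, 312.5 at 40 h and 254.9 at 44 h. In the second it was 293.2 at 48 h, 455.0 at 52 h, 473.5 at 56 h, 395.3 at 60 h, 295.3 at 64 h and 369.3 at 68 h. The highest value stood at CT8 in both cycles, and the highest array was 1.86 times the lowest. The values at CT4 and CT8, of which the lowest was 397.2, did not overlap those at CT16 and CT20, of which the highest was 369.3. The peak time was already known when these times were compared, and the share of all tested genes without such overlap was not counted. In ATG8C, another family member, the values did not overlap either, although both limits came to 331.4 as rounded. The fitted log2 amplitude was 0.34 (standard error 0.059), a peak-to-trough ratio of 1.59, with a peak at CT6.94 (standard error 0.674 h). Fitted apart and without a trend, the cycles gave amplitudes of 0.32 and 0.30 and peaks at CT7.25 and CT7.29. Over all 12 arrays without a trend the amplitude was 0.31. The scatter about the curve was 0.16 on the log2 scale, and in the order of the 12 values only 2 of the 11 steps from one value to the next exceeded it, those between 24 and 40 h and between 48 and 44 h.

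ATG8F followed the course of ATG8E with a smaller swing. Its first-cycle intensities were 1585 at 24 h, 1808 at 28 h, 1908 at 32 h, 1526 at 36 h, 1439 at 40 h and 1372 at 44 h. Its second-cycle intensities were 1408 at 48 h, 1856 at 52 h, 1729 at 56 h, 1580 at 60 h, 1338 at 64 h and 1602 at 68 h. The 4 arrays of CT4 and CT8 held its 4 highest values, and the lowest of these, 1729, lay above the highest at CT16 and CT20, 1602. As for ATG8E, the share of all tested genes without such overlap was not counted. The mean over CT4 and CT8 was 1.27 times the mean over CT16 and CT20. The maximum was at CT8 in the first cycle and at CT4 in the second, and the fitted peak was at CT5.97 (standard error 0.820 h). The log2 amplitude was 0.20 (standard error 0.046), with a peak-to-trough ratio of 1.33. Only 1 of its 11 ordered steps, between 56 and 68 h, exceeded the scatter of 0.11 about the curve. Over the 12 times left out its amplitude ran from 0.19 to 0.23.

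ATG8H belongs to the branch that needs no trimming by ATG4. Its intensities ran 304.9, 354.4, 319.1, 287.8, 285.4 and 241.9 from 24 to 44 h, and 301.6, 405.2, 331.7, 329.8, 297.5 and 334.2 from 48 to 68 h. The harvest of CT4 was the highest in each cycle, and 52 h stood above all others by more than the scatter of the fit, 0.19 against 0.13 on the log2 scale. At the low end 44 h stood apart by 0.24. Values at CT16 and CT20 overlapped those at CT4 and CT8, because 68 h (334.2) lay above 32 h (319.1). The fitted log2 amplitude was 0.22 (standard error 0.052), the ratio of peak to trough 1.35 and the peak CT5.13 (standard error 0.854 h). The amplitude was 0.17 without 52 h and 0.26 without 56 h, the extremes over the 12 times left out.

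ATG8B had the smallest amplitude and the least scatter. Its intensities were 198.7, 222.6, 205.2, 198.2, 177.7 and 187.3 from 24 to 44 h, and 226.6, 258.4, 234.7, 227.9, 213.8 and 226.8 from 48 to 68 h. Each cycle was highest at CT4 and lowest at CT16, and 52 h stood above all others by 0.14 on the log2 scale. The whole second cycle lay higher than the first, so that its values at CT4 and CT8 overlapped those at CT16 and CT20 (mean ratio 1.14). With the trend in the fit, the log2 amplitude was 0.19 (standard error 0.035), a ratio of 1.30, and the peak CT4.54 (standard error 0.646 h). The scatter about the curve was 0.049 on the log2 scale, less than the median of 0.105 over tested genes, and 5 of the 11 ordered steps exceeded it. The standard errors of ATG8B rest on limma's larger value, 0.078. Without the trend term the amplitude fell to 0.12 (standard error 0.052).

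The peaks of ATG8B and ATG8H (CT4.54 and CT5.13) came before those of ATG8F and ATG8E (CT5.97 and CT6.94). The standard errors of 0.646 to 0.854 h are of the order of these gaps, and the differences between the genes were not tested. Over the 12 times the log2 profiles of ATG8E and ATG8F correlated at 0.870 and those of ATG8B and ATG8H at 0.833. The lowest correlation among the 4 was 0.496, between ATG8B and ATG8F. All these profiles come from the same 12 arrays, so the correlations are given as a description and include anything the arrays share. When the period was sought between 19 and 29 h, the best fit was at 24 h for ATG8B and ATG8H, 23.5 h for ATG8E and 22.5 h for ATG8F.

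The rule did not use the change of level from the first cycle to the second, and that change was tested over all genes by the linear trend of the same fit. The trend was fitted to the same values as the amplitudes already known. Without the trend term the log2 amplitude of ATG8B fell from 0.19 to 0.12. For the 4 genes the trend test is therefore not independent of how they were chosen. ATG8B rose at 6 of 6 circadian times, by 1.14 to 1.21 times. Outside the 4 genes, ATG8A and ATG8D were also higher at 6 of 6, and the share of all tested genes that were was not counted. The geometric mean of ATG8B went from 197.8 to 231.0, and its trend was 0.21 per 24 h on the log2 scale (standard error 0.043). After adjustment over all genes this did not pass (adjusted p = 0.0790 from limma). ATG8H was higher in the second cycle at 5 of 6 circadian times (trend 0.15, standard error 0.064, adjusted p = 0.319), ATG8E at 4 of 6 (0.12, standard error 0.076, adjusted p = 0.524) and ATG8F at 3 of 6 (0.014, standard error 0.058, adjusted p = 0.940). No member was called, against 0.0109% of tested genes called upward and 0.0109% downward, 1 gene each. At an unadjusted p below 0.05, 2 of the 4 members, ATG8B and ATG8H, and 13.1% of tested genes passed. The median ratio of the second cycle to the first was 1.00 over all tested genes.

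Scan day overlaps with cycle, since 56 to 68 h were scanned on day 2. Only CT0 has both its harvests on scan day 1. There ATG8B was 198.7 and 226.6, ATG8E 353.6 and 293.2, ATG8F 1585 and 1408, and ATG8H 304.9 and 301.6, so ATG8B alone of the 4 was higher at 48 h. At CT20 all 4 were higher in the second cycle, by 1.21 times for ATG8B, 1.45 for ATG8E, 1.17 for ATG8F and 1.38 for ATG8H. The first of those arrays is that of 44 h, scanned on day 1, and the second that of 68 h, scanned on day 2. The part of scan day or of the 44-h array in that gap was not tested.

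**Figure D2:**
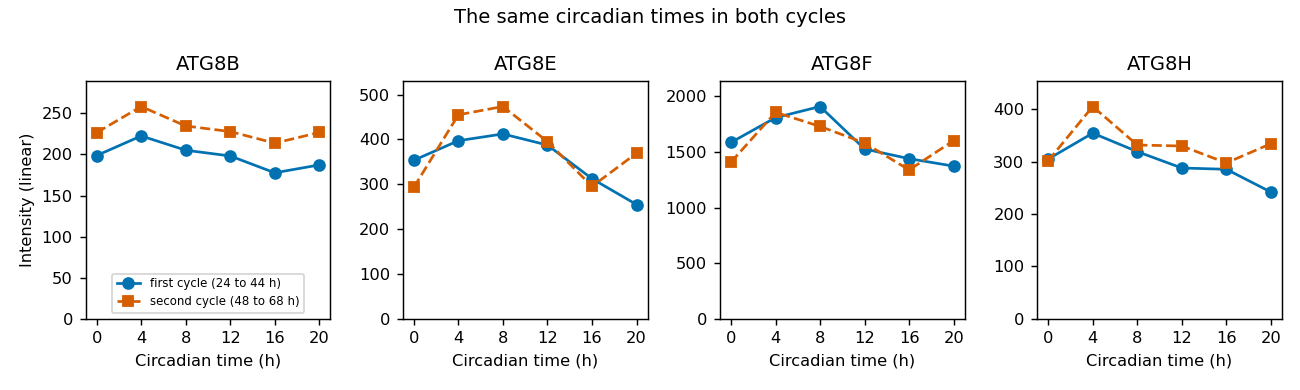
Linear intensity (y axes, from 0) of ATG8B, ATG8E, ATG8F and ATG8H against circadian time (x axes, h), first cycle as blue circles and second as orange squares, 1 array per point. The curves of ATG8B run apart over their whole length (ratios 1.14 to 1.21), and those of ATG8E and ATG8H lie farthest apart at CT20 (ratios 1.45 and 1.38).

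On the 7 arrays of scan day 1 alone, fitted without a trend, the log2 amplitudes were 0.21 for ATG8B, 0.38 for ATG8E, 0.25 for ATG8F and 0.26 for ATG8H, and the peaks lay between CT4.34 and CT7.21. With scan day added to the fit of all arrays, in which the array of 28 h no longer bears on the curve, amplitudes were 0.18, 0.33, 0.20 and 0.20 in the same order.

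The 5 other ATG8 genes were also measured, and 1 of them passed the rhythm test, where 11% of all tested genes did. Their median log2 amplitude was 0.13. On simulated data only 34% of rhythms with a log2 amplitude of 0.2 were called. Far fewer genes were given a rhythm there than were called here, which makes the adjusted threshold stricter. The share found in these data may therefore be higher than 34%, and it was not measured. Here and below, not passing does not show that a gene lacked a rhythm. ATG8A (listed as APG8A, AT4G21980) was rhythmic (adjusted p = 0.0140 from limma), and its fitted curve had a log2 amplitude of 0.23 ± 0.047 (SE) and a peak at CT4.24 ± 0.700 h. Its intensities were 528.2, 613.3, 499.9, 464.2, 468.5 and 409.5 from 24 to 44 h and 579.8, 634.6, 587.9, 530.7, 502.3 and 537.7 from 48 to 68 h. As in ATG8B and ATG8H, CT4 was the highest time in each cycle, and the log2 profile of ATG8A correlated at 0.892 with that of ATG8H and 0.853 with that of ATG8B. The second cycle was higher at 6 of 6 circadian times (adjusted p = 0.272 for the trend). The rhythm call was lost without the trend term (adjusted p = 0.0775), and over the 12 times left out its adjusted p ran from 0.00992 to 0.0498.

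ATG8I and ATG8C peaked in the same part of the day but were not called. ATG8I (listed as APG8H, AT3G15580, not to be taken for ATG8H) ranged from 668.1 at 44 h to 905.6 at 32 h, and its log2 amplitude of 0.15 ± 0.042 (SE), peaking at CT6.39, did not pass (limma, adjusted p = 0.0816). ATG8C (AT1G62040) ranged from 295.5 at 64 h to 384.0 at 52 h, and its log2 amplitude was 0.13 ± 0.040 (SE), peaking at CT5.91 (limma, adjusted p = 0.119). ATG8C was called without 40 h (adjusted p = 0.0388), and ATG8I under none of the alternatives tried (adjusted p = 0.0530 to 0.173).

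ATG8G and ATG8D had the flattest profiles of the family. ATG8G (AT3G60640) lay between 162.6 and 202.4, and its log2 amplitude was 0.082 ± 0.038 (SE, limma, adjusted p = 0.323). ATG8D (AT2G05630) lay between 275.3 and 355.8, and its log2 amplitude was 0.087 ± 0.037 (SE, limma, adjusted p = 0.262). Unlike the 4 genes described here, ATG8D was lowest at CT4 in both cycles, and its correlations with them over the 12 times ran from -0.279 with ATG8F to 0.023 with ATG8E. ATG8G correlated at 0.612 with ATG8E and 0.594 with ATG8F but at 0.094 with ATG8B and 0.187 with ATG8H. Differences in rhythm between family members were not tested.

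**Figure D3:**
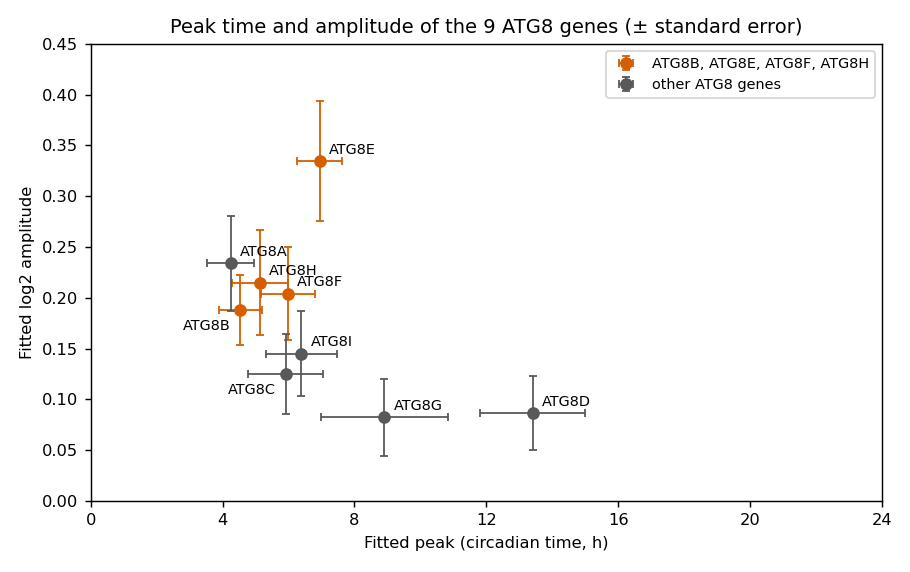
Fitted log2 amplitude (y axis, from mean to peak) against fitted peak in circadian time (x axis, h) for the 9 ATG8 genes, with bars of 1 standard error. ATG8A, ATG8C and ATG8I sit beside ATG8B, ATG8F and ATG8H between CT4.24 and CT6.39, ATG8E lies highest at 0.34, and ATG8D lies apart at CT13.4.

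**Figure D4:**
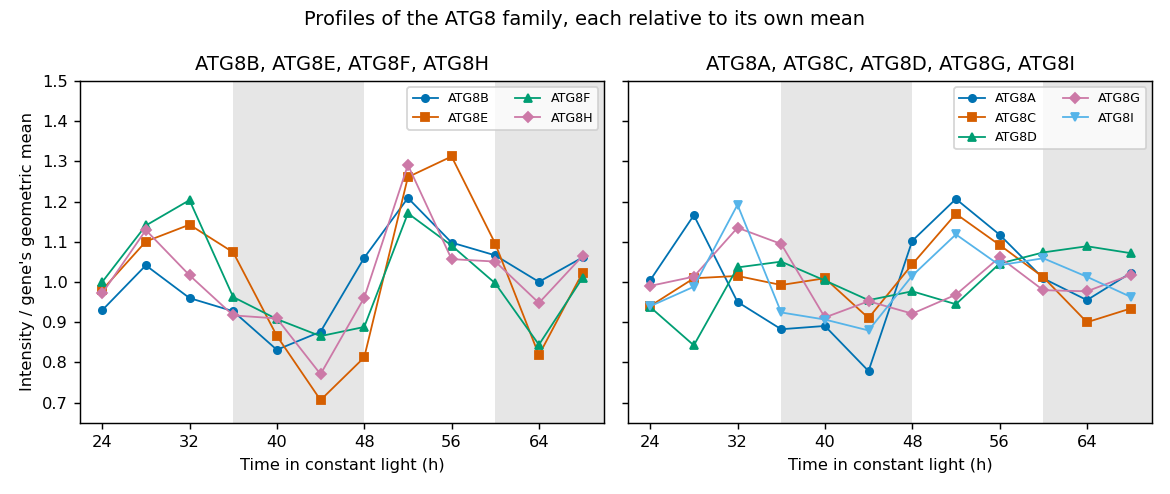
Intensity divided by the gene's own geometric mean (y axis) against hours in constant light (x axis), for ATG8B, ATG8E, ATG8F and ATG8H on the left and the other 5 ATG8 genes on the right, 1 array per point, grey bands marking subjective night. The array of 44 h holds the lowest value of ATG8E, ATG8H, ATG8A and ATG8I, and that of 52 h the highest of ATG8B, ATG8H, ATG8A and ATG8C.

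In the whole family 4 of 9 genes had their lowest value at 44 h, where 13.6% of all tested genes did, and 4 of 9 their highest at 52 h, where 8.81% did. Without 44 h, the amplitudes of ATG8E and ATG8H were 0.29 and 0.18, and without 52 h that of ATG8B was 0.18. The 3 root markers were also highest at CT4 in both cycles, as were 6.28% of all tested genes. EXPA7, an expansin of root hairs, stood at 264.0 and 249.7 there and between 178.2 and 211.2 at all other times. EXPA18, of the same kind, stood at 472.0 and 457.6 against 314.9 to 423.8, and PYK10, an abundant root β-glucosidase, at 10290 and 10840 against 9081 to 10680. None of these was called rhythmic (adjusted p = 0.577, 0.870 and 0.486 from limma). Their log2 profiles correlated with those of the 4 ATG8 genes at 0.08 to 0.53, highest for EXPA7 with ATG8H. All 3 green-tissue markers were rhythmic. LHCB4.1 and LHCB4.2, light-harvesting proteins of photosystem II, peaked at CT5.63 and CT4.05 and correlated with the 4 ATG8 genes at 0.52 (LHCB4.1 with ATG8B) to 0.82 (LHCB4.1 with ATG8F). RCA, which keeps Rubisco active, had its fitted peak at CT23.4 and correlated with them at -0.39 (ATG8E) to -0.01 (ATG8B and ATG8H). The part of tissue make-up in the ATG8 curves was not tested, and in whole seedlings fewer cells of a type and less RNA per cell cannot be told apart.

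Few other genes of the pathway could be set beside ATG8. Listed genes were sought only by symbol or synonym. Of the array's 22810 probe sets, 8794 had no symbol and 503 had several, and these were left out. A listed gene that was not found may still have been measured. Of 44 listed genes of the kinase, membrane, lipid kinase and conjugation steps and of the receptors, 2 had a named probe set, and neither passed the rhythm test. ATG3 (AT5G61500), the enzyme that hands ATG8 to its lipid, was nearly flat. Its intensity stayed between 457.8 and 531.4, and the log2 amplitude, 0.038 ± 0.039 (SE), was no larger than its error (limma, adjusted p = 0.758). ATG101 (AT5G66930), a subunit of the ATG1 kinase complex that starts autophagosome formation, reached 385.9 at 52 h and 318.8 or less elsewhere. Its log2 amplitude of 0.16 ± 0.055 (SE), peaking at CT5.53, did not pass (limma, adjusted p = 0.173).

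Upstream, the RAPTOR genes encode the partner of TOR, the kinase that restrains autophagy while nutrients are plentiful. Neither passed the rhythm test, RAPTOR1 with a log2 amplitude of 0.067 (limma, adjusted p = 0.590) and RAPTOR2 with 0.12 (adjusted p = 0.204), and their fitted peaks were at CT16.0 and CT23.4. AKINBETA1, a β subunit of SnRK1, the kinase that is active when sugar is short, was rhythmic. It was highest at 32 h (387.9) in the first cycle and at 60 h (381.8) in the second and lowest at 48 h (250.1). The fitted log2 amplitude reached 0.20 ± 0.044 (SE, limma, adjusted p = 0.0265), and the peak came at CT9.91 ± 0.937 h, later than the fitted peaks of the 4 ATG8 genes, a difference that was not tested. AKINBETA1 was not called once scan day entered the fit (adjusted p = 0.0762), with no intensity filter (adjusted p = 0.0682), or without 32, 56 or 60 h (adjusted p = 0.0763, 0.0706 and 0.0729).

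At the vacuole, where autophagic cargo is degraded, the 4 vacuolar processing enzymes were measured. These are cysteine proteases that activate other vacuolar proteins. GAMMA-VPE, the main form of vegetative tissue, ranged from 1388 at 40 h to 1807 at 56 h and passed narrowly (limma, adjusted p = 0.0453). Its curve peaked at CT8.54 with a log2 amplitude of 0.14 ± 0.035 (SE). The call did not survive 14 of the 18 alternatives tried, and over them the highest adjusted p was 0.143, without 56 h. ALPHA-VPE, BETA-VPE and DELTA-VPE did not pass (adjusted p = 0.137, 0.221 and 0.252). Together, 3 of 14 tested genes of the lists outside the 4 ATG8 genes were rhythmic, ATG8A, AKINBETA1 and GAMMA-VPE, against 11% of all tested genes. The median log2 amplitude of the 14 was 0.13 against 0.088 over all tested genes.

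The profiles closest to each of the 4 genes over the 12 times belonged mostly to genes known here only by locus. Closest to ATG8B was AT1G14240 (r = 0.936, fitted peak CT5.02), followed by AT1G72140 (0.895) and AT1G30750 (0.891). For ATG8E they were AT4G36500 (0.949, CT7.55), AT5G44680 (0.937) and AT4G18930 (0.912). For ATG8F they were EXPA8 (0.955, CT6.10), an expansin that loosens cell walls, then AT4G01330 (0.944) and AT1G52200 (0.935). The expansin gene swung far more, with a log2 amplitude of 0.84 against 0.20 for ATG8F. For ATG8H they were AT1G17350 (0.968, CT5.68), AT1G06620 (0.939) and AT2G15220 (0.932). Among all tested genes the nearest family member stood 13th for ATG8B, 23rd for ATG8E, 44th for ATG8F and 17th for ATG8H. That member was ATG8A for ATG8B and ATG8H, ATG8F for ATG8E and ATG8E for ATG8F.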

How the data were processed

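The authors deposited linear intensity values for 22810 ATH1 probe sets, already on a common scale. The submitters' notes name MAS5 and the methods name dChip expression values, and the sources used here do not settle which made the table. Each array's deposited record holds other information, from which scan days alone were taken. GEO's annotation and RefSeq's gene table named 13415 probe sets for 13264 nuclear genes. Intensities below 1 were set to 1, the upper 69% by mean log2 were kept, and the brightest probe set stood for each gene. limma 3.58.1 (R 4.3.3) fitted a 24-h cosine and a linear trend to log2 intensity across all 9161 genes (8 residual degrees of freedom), with Benjamini-Hochberg adjustment at 0.05. The fit was checked on simulated data. Members and lists were chosen with earlier results of these data known. The genes named are the 4 members, list genes with a named probe set, and the 3 genes of highest correlation with each member. Alternatives were no trend, no intensity filter, the upper 50%, log2 of intensity plus 32, quantile normalization, scan day as a block, a free period, linear intensity, and each time left out. Promoter and protein sequences were not analysed here. Python 3.11.15 and matplotlib 3.10.9 drew the figures.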

Additional observations from a re-analysis of the deposited data

How the results depend on the processing

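The peak times of ATG8B, ATG8E, ATG8F and ATG8H moved by less than 1 standard error under every alternative. The amplitudes did too, with exceptions for ATG8B and ATG8H. That of ATG8B was 0.12 without the trend term, and 0.14 and 0.099 in the first and second cycle alone. That of ATG8H was 0.13 in the second cycle alone. The single-cycle fits also had no trend term, so the part of the cycle and that of the missing term cannot be told apart. The 4 were chosen on these curves, so their calls are a description under every setting and do not test whether the genes are rhythmic. The number called rhythmic was 2 without the trend term (ATG8E and ATG8F, where 10.6% of all tested genes were called), 2 without the intensity filter (ATG8B and ATG8E, where 4.66% were), 2 with scan day as a block (ATG8B and ATG8E, where 8.44% were), 1 on scan day 1 alone (ATG8E, where 3.37% were), and 2 to 4 with each time left out (6.7% to 11.7%). ATG8F was not called without 28, 32, 44, 52, 56 or 64 h, nor ATG8H without 28, 32, 36, 44, 52, 60 or 64 h. The fits on scan day 1 alone and on single cycles were chosen after seeing the data. Over all genes, 618 were rhythmic without the intensity filter, 309 on scan day 1 alone, and 614 to 1070 with each time left out (614 without 56 h), against 1012. Of the other listed genes, 1 was rhythmic without the trend term, 1 without the intensity filter and 1 with scan day as a block, and 1 to 4 with a time left out, against 3. Genes with a trend numbered 2, but 22 with the upper 50% by intensity, 12 with log2 of intensity plus 32, 0 with scan day as a block, and 0 to 18 with a time left out. ATG8B was called for its trend with the upper 50% (adjusted p = 0.0386 from limma). The trend of ATG8E was -0.014 with scan day as a block, and that of ATG8F was -0.014 after quantile normalization, -0.0092 with scan day as a block and between -0.056 (without 68 h) and 0.032 with a time left out. None of these passed, and the cause of these changes was not tested. No analysis paired by replicate was possible because each time had 1 array and the labels give no replicate numbers. The cycles were set side by side at each circadian time as ratios, and only the linear trend was tested. A period or shape that changed between the cycles could not be resolved at 6 times per cycle.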
